A study of Mus musculus with 8 samples.

Results

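The endothelial genes of the young mouse kidney were followed in whole kidneys in which Kctd1 had been deleted from the nephron. The members were chosen by symbol: 32 genes that are general, glomerular or arterial markers or regulators of endothelium, and 3 angiogenic ligands, 35 of the 47729 genes listed. Strand-specific RNA-seq was made from total RNA of whole kidneys on postnatal day 8. The knockout group holds 4 libraries from Six2Cre+KCTD1fl/fl mice, labelled as a nephron-specific Kctd1 knockout, and the wildtype group holds 4 libraries from control littermates. Whether those littermates carried the Cre transgene or floxed alleles, and whether each library is a separate animal, is not stated in the labels, so the p-values rest on the spread among these libraries, which may be technical. Six2-driven Cre acts in the progenitors of the nephron epithelium. Endothelium, stroma and blood cells lie outside that lineage, so Kctd1 was not targeted in the cells that the 32 endothelial genes mark, whereas podocytes and tubules, which make Vegfa, lie inside it.

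Endothelial cells of the kidney line arteries, glomerular capillaries and the peritubular network, and the glomerular and peritubular capillaries are fenestrated. Their growth and upkeep rest on VEGF-A, which signals through the receptor kinase VEGFR2 (Kdr), and on angiopoietins, which signal through TIE2 (Tek). Podocytes are the classic source of VEGF-A for the glomerular capillary, so an epithelial defect can reach neighbouring vessels. ETS factors such as ERG and FLI1 and the SOXF factors SOX17 and SOX18 drive many endothelial genes.

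The promoters of 6 members are shown: the members were sorted into 10 roles, and of the members with the smallest p in each role these have an entry among the RefSeq promoters (GRCm38.p6, 250 bases before the start to 50 after it). Capitals mark AGGAAG, a core of the motif bound by ETS factors, on either strand.
Flt1, chr5:147725962-147726261, minus strand: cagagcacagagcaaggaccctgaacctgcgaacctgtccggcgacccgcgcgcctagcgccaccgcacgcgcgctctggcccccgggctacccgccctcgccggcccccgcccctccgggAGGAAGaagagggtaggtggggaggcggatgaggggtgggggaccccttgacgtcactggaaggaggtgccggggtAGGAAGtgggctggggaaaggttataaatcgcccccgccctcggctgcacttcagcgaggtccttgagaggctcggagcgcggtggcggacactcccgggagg
Tie1, chr4:118489800-118490099, minus strand: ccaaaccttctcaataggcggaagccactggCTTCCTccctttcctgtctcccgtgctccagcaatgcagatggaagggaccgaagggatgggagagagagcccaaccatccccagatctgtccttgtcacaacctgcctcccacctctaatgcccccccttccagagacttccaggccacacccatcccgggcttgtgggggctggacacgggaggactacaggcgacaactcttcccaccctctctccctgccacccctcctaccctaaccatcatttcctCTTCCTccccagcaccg
Vegfa, chr17:46032328-46032627, minus strand: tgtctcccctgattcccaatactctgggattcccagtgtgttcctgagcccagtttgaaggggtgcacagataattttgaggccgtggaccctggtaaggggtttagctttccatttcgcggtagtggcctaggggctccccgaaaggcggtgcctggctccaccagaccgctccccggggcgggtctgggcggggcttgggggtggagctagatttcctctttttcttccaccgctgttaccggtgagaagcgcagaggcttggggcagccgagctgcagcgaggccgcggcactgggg
Ehd3, chr17:73804591-73804890, plus strand: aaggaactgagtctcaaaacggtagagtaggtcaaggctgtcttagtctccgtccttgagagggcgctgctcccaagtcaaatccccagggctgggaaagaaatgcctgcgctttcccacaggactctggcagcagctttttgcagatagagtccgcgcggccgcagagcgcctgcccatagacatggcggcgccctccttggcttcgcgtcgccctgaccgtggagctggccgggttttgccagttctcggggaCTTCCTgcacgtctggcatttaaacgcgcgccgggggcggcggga
Eng, chr2:32646345-32646644, plus strand: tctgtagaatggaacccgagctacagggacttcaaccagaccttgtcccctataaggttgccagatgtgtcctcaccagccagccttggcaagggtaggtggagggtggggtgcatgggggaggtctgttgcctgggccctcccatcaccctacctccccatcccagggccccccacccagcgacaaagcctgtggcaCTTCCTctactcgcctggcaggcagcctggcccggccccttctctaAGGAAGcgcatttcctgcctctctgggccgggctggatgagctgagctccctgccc
Gja4, chr4:127313990-127314289, minus strand: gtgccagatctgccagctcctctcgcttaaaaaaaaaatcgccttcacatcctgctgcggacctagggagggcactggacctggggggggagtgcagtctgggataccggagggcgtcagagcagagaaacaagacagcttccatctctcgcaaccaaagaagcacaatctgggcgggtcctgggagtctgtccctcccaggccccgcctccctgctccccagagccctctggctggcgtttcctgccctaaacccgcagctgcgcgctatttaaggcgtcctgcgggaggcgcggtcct
AGGAAG stood in 2 places in Flt1, in 2 in Tie1, in 2 in Eng and in 1 in Ehd3, and in 0 in Vegfa and Gja4. Of the 18 members with a promoter in the RefSeq table, 11 held AGGAAG on either strand (61.1%), against 9498 of all 27025 promoters of the same length (35.1%). The SOX core ACAAT stood in 7 of the 18 (38.9%), against 31.6% of all promoters. GCCNNNGGC, a motif of the AP-2 factors that KCTD1 is known to repress, stood in 5 of the 18 (27.8%), against 16.5% of all. The members' promoters had a median GC content of 59.3%, against 52.7% over all, and a match is a description of the letters and not of binding.

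The libraries held 14457760 to 20741076 counts, and every member had between 160 and 5780 counts in every library. Levels are given as CPM, counts scaled to a common library size with TMM factors. Kctd1 itself measured 22.4 to 25.8 CPM in the 4 knockout libraries and 28.9 to 32.6 CPM in the 4 wildtype libraries (edgeR adjusted p = 0.279, DESeq2 adjusted p = 0.022). Of the 10 kidney identity genes, among them Lrp2, Umod and Aqp2, 0 were at 0 in every library. Knockout 2 had 5.39% of its counts on Rn18s-rs5, a ribosomal RNA, against 0.361% to 1.14% in the other 7 libraries. Its TPM values were also lower across the table, with a median deviation of -0.38 on the log2 scale over 18316 genes, against -0.00 to 0.15 in the others. Xist, the RNA of the inactive X chromosome, had 81994 counts in knockout 2 and 101295 in wildtype 3, against 4 to 151 in the other libraries. Groups are therefore compared in CPM below, and TPM is used for levels between genes.

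None of the 35 members passed the threshold of 0.05 on the adjusted p. Adjusted p-values here are Benjamini-Hochberg values over the 18548 genes tested with the quasi-likelihood method of edgeR, and the smallest of the members was 0.698, for Mmrn2. Over all genes 15 passed, 0.0809% of those tested. DESeq2 called 0 members as well, with 0.669% of its genes called. At an unadjusted edgeR p under 0.05, 4 members lay below wildtype and 0 above, where 3.08% of all genes lay below and 3.11% above at that p. That 4 became 1 without wildtype 4 and 2 without knockout 1 or without wildtype 3. Without both Xist-rich libraries, knockout 2 and wildtype 3, 0 members passed, 27 estimates were negative, and 6 members lay below and 1 above wildtype at that unadjusted p. The shares of all genes at that p were not taken for the fits with libraries left out, so these counts have no baseline. In 3 of the 35 members (Plvap, Aplnr and Gja4) the 4 knockout values all lay below the 4 wildtype values, against 2.06% of all genes tested, and in 0 members above, against 1.97%. No decrease was called, and in whole kidneys a change in endothelial cell number and one in RNA per endothelial cell cannot be told apart.

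The members leaned slightly to the knockout-low side. Of 35 log2 fold changes 27 were negative and 8 positive, with a median of -0.09 and a range of -0.27 to 0.26. Over all 18548 genes tested the median was 0.00 and 49.7% were negative. The 32 endothelial genes without the ligands had a median of -0.08, with 24 negative and 8 positive. The 95% intervals of 33 of the 35 lay within 1.5-fold in either direction. The exceptions were Ehd3, with a lower bound of 0.666-fold, and Vwf, with an upper bound of 1.76-fold. The intervals of 4 members lay wholly below 0 and of 0 members wholly above. These intervals are unadjusted and come from the same test, so this repeats the count at an unadjusted p under 0.05 and adds no evidence.

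**Figure D1:**
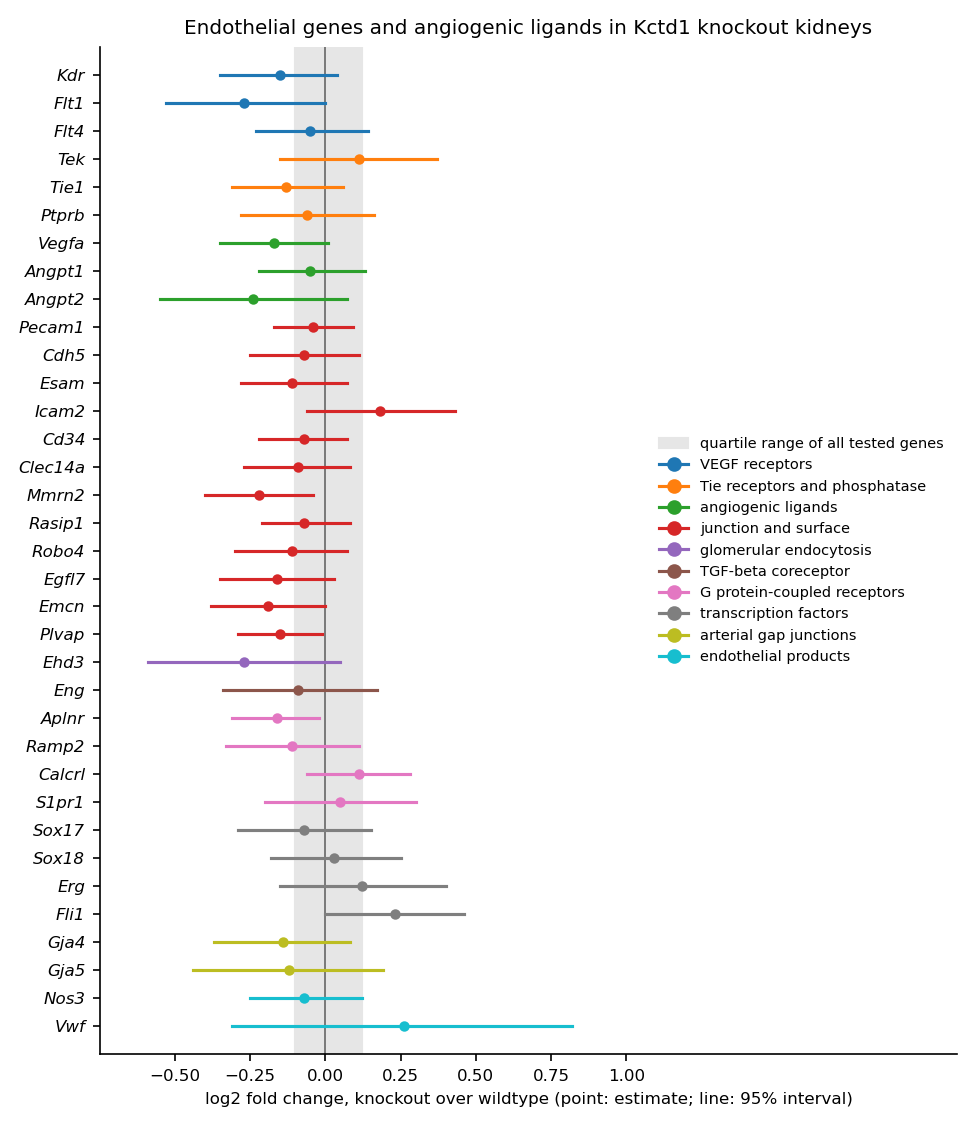
Log2 fold change of knockout over wildtype for the 35 members (points) with 95% intervals (lines), coloured by role; the grey band spans the quartiles of all tested genes. Estimates run from -0.27 to 0.26, and 4 intervals lie wholly below 0 and 0 wholly above it. The intervals are not adjusted for the number of genes tested.

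The VEGF receptors all had negative estimates. Flt1 encodes VEGFR1, a receptor with a soluble form that traps VEGF-A. It measured 60.1, 75.3, 68.5 and 73.0 CPM in knockout 1 to 4, against 99.3, 89.3, 74.7 and 70.3 CPM in wildtype 1 to 4. Wildtype 1 and 2 were the highest of the 8, and wildtype 3 and 4 lay among the knockout values. The log2 fold change was -0.27 ± 0.12 (SE; edgeR adjusted p = 0.805). Kdr, the main signalling receptor, measured 83.1, 106, 91.1 and 96.7 CPM in knockout 1 to 4, against 105, 98.0, 101 and 116 CPM in wildtype 1 to 4. Its groups overlapped, through knockout 2 (log2 fold change -0.15 ± 0.09, edgeR adjusted p = 0.859). Flt4, the VEGFR3 gene known from lymphatic and fenestrated endothelium, averaged 29.1 ± 2.18 CPM in knockout kidneys and 30.1 ± 1.13 CPM in wildtype (SD, n = 4 each). The log2 ratio of Flt1 to Kdr in TPM was -0.42 ± 0.04 in knockout kidneys and -0.31 ± 0.30 in wildtype (SD, n = 4 each), and the 4 wildtype libraries, at -0.05, -0.11, -0.40 and -0.70, spanned all 4 knockout values.

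The ligand Vegfa is made by podocytes and tubule cells, the epithelium in which Kctd1 was targeted. It measured 229, 252, 197 and 240 CPM in knockout 1 to 4, against 251, 246, 266 and 269 CPM in wildtype 1 to 4. Knockout 3 was the lowest and knockout 2 lay within the wildtype range (log2 fold change -0.17 ± 0.08, edgeR adjusted p = 0.833). Podocyte genes lay below wildtype too: 7 of the 8 on the podocyte list were below wildtype, the list's median log2 fold change was -0.14, and its summed level was 937 to 1168 CPM in knockout and 1142 to 1345 CPM in wildtype, with overlapping groups. The part of podocyte content in the Vegfa value was not tested. The log2 ratio of Vegfa to Kdr in TPM was 3.23 ± 0.14 in knockout kidneys and 3.24 ± 0.08 in wildtype (SD, n = 4 each).

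Angiopoietins act through Tek, with Angpt1 as the stabilising ligand and Angpt2 as the context-dependent antagonist that endothelial and mural cells make. Angpt1 measured 31.9, 31.1, 32.2 and 33.2 CPM in knockout 1 to 4, against 33.5, 31.4, 31.1 and 36.5 CPM in wildtype 1 to 4, with overlapping groups (log2 fold change -0.05 ± 0.08). Angpt2 measured 41.2, 29.6, 28.1 and 42.9 CPM in knockout 1 to 4, against 40.5, 44.8, 41.8 and 40.8 CPM in wildtype 1 to 4. Knockout 2 and 3 lay apart below all wildtype libraries, and knockout 1 and 4 lay among them (log2 fold change -0.24 ± 0.14, edgeR adjusted p = 0.855). The log2 ratio of Angpt2 to Angpt1 in TPM was 0.90 ± 0.30 in knockout kidneys and 1.12 ± 0.16 in wildtype (SD, n = 4 each).

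The receptor side of this pathway had estimates of both signs. Tek averaged 99.8 ± 15.7 CPM in knockout kidneys and 92.5 ± 8.01 CPM in wildtype (log2 fold change 0.11 ± 0.12). Tie1, the orphan partner of TIE2, measured 125, 125, 142 and 148 CPM in knockout 1 to 4, against 135, 143, 161 and 150 CPM in wildtype 1 to 4. Knockout 1 and 2 were the lowest, and knockout 3 and 4 overlapped with wildtype (log2 fold change -0.13 ± 0.08, edgeR adjusted p = 0.899). The log2 ratio of Tie1 to Tek in TPM was 0.48 ± 0.14 in knockout kidneys and 0.71 ± 0.19 in wildtype (SD, n = 4 each), and the groups overlapped. Ptprb, the phosphatase VE-PTP that restrains TIE2, averaged 92.2 ± 12.9 CPM in knockout kidneys and 96.0 ± 1.29 CPM in wildtype, with knockout 3 at 72.9 CPM apart from the other 7 libraries at 94.9 to 99.7 CPM.

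**Figure D2:**
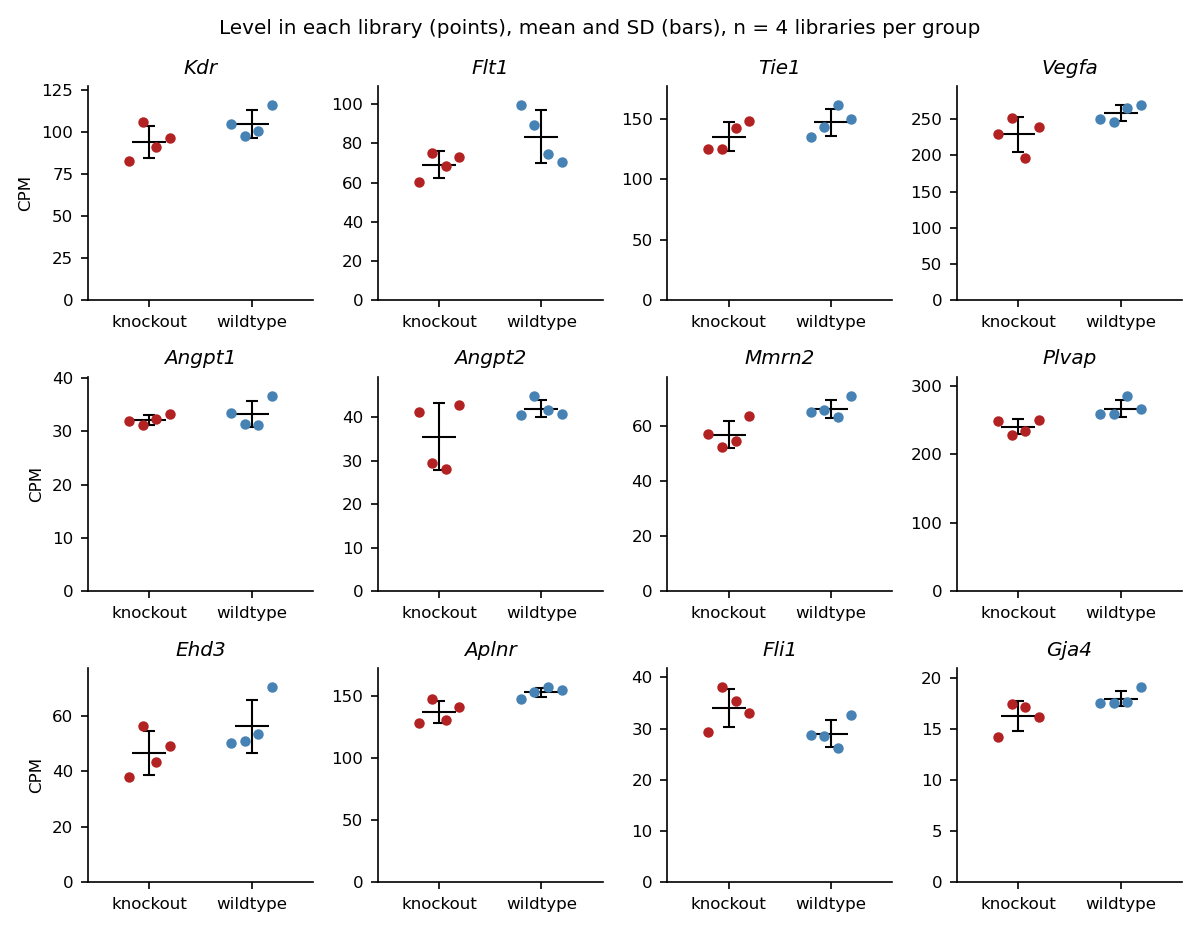
CPM in each of the 4 knockout and 4 wildtype libraries for 12 members, with the mean and SD, on axes that start at 0. Plvap, Aplnr and Gja4 are the members whose groups do not overlap, and Angpt2 shows knockout 2 and 3 at 29.6 and 28.1 CPM apart from the rest.

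The largest group of members, labelled junction and surface, also takes in the matrix gene Mmrn2, the secreted Egfl7 and Rasip1. Of these 12 genes 11 had negative estimates, with a median of -0.10. Mmrn2, an extracellular matrix protein that binds CLEC14A, measured 57.0, 52.3, 54.5 and 63.7 CPM in knockout 1 to 4, against 65.3, 66.0, 63.2 and 70.8 CPM in wildtype 1 to 4. Knockout 4 lay between the wildtype values and the other knockouts lay below them (log2 fold change -0.22 ± 0.08). Plvap, the diaphragm protein of fenestrae, measured 249, 228, 234 and 250 CPM in knockout 1 to 4, against 258, 258, 284 and 266 CPM in wildtype 1 to 4. All knockout libraries lay below all wildtype libraries (log2 fold change -0.15 ± 0.06, edgeR adjusted p = 0.768). Emcn, the capillary sialomucin endomucin, averaged 139 ± 14.0 CPM in knockout kidneys and 158 ± 10.7 CPM in wildtype, with overlapping groups (log2 fold change -0.19 ± 0.09).

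The broad markers of endothelial content had small negative estimates. Pecam1 (CD31) averaged 166 ± 4.54 CPM in knockout kidneys and 171 ± 7.07 CPM in wildtype, and its 95% interval ran from 0.89-fold to 1.07-fold. Cdh5, which encodes VE-cadherin of the endothelial junction, averaged 131 ± 8.67 CPM in knockout kidneys and 137 ± 12.6 CPM in wildtype, with an interval of -0.25 to 0.11 on the log2 scale. The sialomucin gene Cd34 averaged 145 ± 9.46 CPM in knockout kidneys and 153 ± 5.46 CPM in wildtype. Among the further surface genes, Esam averaged 66.7 ± 2.01 CPM in knockout kidneys and 71.8 ± 6.59 CPM in wildtype, Robo4, the guidance receptor of endothelium, 55.0 ± 4.28 CPM in knockout kidneys and 59.5 ± 4.24 CPM in wildtype, and Clec14a 29.7 ± 1.65 CPM in knockout kidneys and 31.7 ± 1.17 CPM in wildtype. Rasip1, needed for vessel lumen formation, averaged 55.3 ± 1.49 CPM in knockout kidneys and 57.9 ± 1.76 CPM in wildtype. Icam2 was the exception in sign, at 25.3 ± 3.09 CPM in knockout kidneys and 22.3 ± 1.84 CPM in wildtype (log2 fold change 0.18 ± 0.11).

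Egfl7, a secreted endothelial protein gene that hosts the microRNA miR-126, averaged 163 ± 9.61 CPM in knockout kidneys and 182 ± 18.7 CPM in wildtype (log2 fold change -0.16 ± 0.08), with overlapping groups. Its gene overlaps Gm20532 and Mir126a on the same strand and Agpat2 and Mir126b on the other, and how reads were split among them was not examined. The same holds for Ramp2 and Vps25 and for Rasip1 and Izumo1 on shared strands, and Nos3, Eng, Gja5, Cd34, Angpt1 and Sox17 overlap genes on the other strand.

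Ehd3 marks the glomerular endothelium, where its protein serves endocytic recycling. It measured 38.0, 56.4, 43.3 and 49.0 CPM in knockout 1 to 4, against 50.2, 51.1, 53.3 and 70.2 CPM in wildtype 1 to 4. Wildtype 4 stood far above the rest, and knockout 2 lay among the wildtype values (log2 fold change -0.27 ± 0.14, edgeR adjusted p = 0.846). Eng, the TGF-beta and BMP coreceptor endoglin, measured 139, 151, 114 and 157 CPM in knockout 1 to 4, against 136, 131, 164 and 165 CPM in wildtype 1 to 4. Knockout 3 was the lowest and the other libraries mixed (log2 fold change -0.09 ± 0.12).

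Of the G protein-coupled receptor genes, Aplnr was the one with separated groups. Aplnr encodes the apelin receptor of angiogenic and venous endothelium. It measured 128, 148, 131 and 141 CPM in knockout 1 to 4, against 148, 153, 157 and 155 CPM in wildtype 1 to 4. Knockout 2 lay just under wildtype 1, and the other knockouts lay clearly below (log2 fold change -0.16 ± 0.07, edgeR adjusted p = 0.733). Calcrl and Ramp2 together form an adrenomedullin receptor. Calcrl averaged 95.9 ± 6.07 CPM in knockout kidneys and 88.9 ± 5.75 CPM in wildtype, and Ramp2 averaged 55.2 ± 7.85 CPM in knockout kidneys and 59.6 ± 2.80 CPM in wildtype. S1pr1, a receptor that stabilises junctions, averaged 27.2 ± 1.68 CPM in knockout kidneys and 26.3 ± 3.77 CPM in wildtype.

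Of the 4 transcription factor genes, 3 had positive estimates, with a median of 0.08. Fli1 measured 29.4, 38.0, 35.4 and 33.1 CPM in knockout 1 to 4, against 28.8, 28.6, 26.2 and 32.6 CPM in wildtype 1 to 4. Knockout 1 lay below wildtype 4, and the other knockouts lay above all wildtype libraries (log2 fold change 0.23 ± 0.10, edgeR adjusted p = 0.814). Erg averaged 31.8 ± 5.29 CPM in knockout kidneys and 29.2 ± 2.24 CPM in wildtype. Sox18 averaged 40.9 ± 4.35 CPM in knockout kidneys and 40.0 ± 3.16 CPM in wildtype, and Sox17, the arterial SOXF factor, 44.2 ± 2.27 CPM in knockout kidneys and 46.5 ± 6.04 CPM in wildtype. The difference between transcription factors and the junction and surface group was not tested. Fli1 is also expressed in blood cells, and on the leukocyte list 3 of 6 tested genes were positive and 3 negative, with a summed level of 85.3 to 91.5 CPM in knockout and 92.7 to 96.4 CPM in wildtype, of which the macrophage gene Csf1r was the largest part.

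Both arterial connexin genes had negative estimates. Gja4 encodes connexin 37 and measured 14.2, 17.5, 17.2 and 16.2 CPM in knockout 1 to 4, against 17.6, 17.6, 17.7 and 19.1 CPM in wildtype 1 to 4. The groups were separated, though knockout 2 nearly touched wildtype 1 (log2 fold change -0.14 ± 0.10, edgeR adjusted p = 0.909). Gja5 (connexin 40) averaged 19.2 ± 4.18 CPM in knockout kidneys and 21.0 ± 0.993 CPM in wildtype. Gja4 lies on chr4:127311421-127314039 (minus strand, GRCm38), Plvap on chr8:71497765-71511752 (minus strand) and Aplnr on chr2:85136225-85139923 (plus strand). Nos3, endothelial nitric oxide synthase, averaged 31.8 ± 1.89 CPM in knockout kidneys and 33.3 ± 1.98 CPM in wildtype. Vwf, von Willebrand factor of larger vessels, measured 11.7, 18.0, 13.5 and 17.3 CPM in knockout 1 to 4, against 9.74, 12.3, 19.6 and 8.99 CPM in wildtype 1 to 4. Wildtype 3 was the highest of all 8, and the groups overlapped widely (log2 fold change 0.26 ± 0.25).

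The members also varied between libraries of the same genotype. In knockout 1, 29 of the 32 endothelial genes lay below their own mean over the 8 libraries, with a median deviation of -0.11 on the log2 CPM scale. In knockout 2, 3 and 4 these counts were 15, 22 and 9, with medians of 0.02, -0.06 and 0.05. In wildtype 1 to 4 they were 15, 15, 9 and 6, with medians of 0.01, 0.01, 0.04 and 0.09. Knockout 1 was thus the lowest and wildtype 4 the highest, while knockout 2 and 4 lay among the wildtype libraries. Pericyte and smooth muscle genes had medians of -0.20, 0.06, -0.06 and -0.03 in knockout 1 to 4 and of 0.05, 0.05, 0.09 and 0.06 in wildtype 1 to 4, so knockout 1 was lowest in both lists. The lymphatic list was not lowest in knockout 1, with a median of 0.09 there, against -0.23 to 0.08 in the other 7 libraries. Its genes were mixed in knockout 1: Itga9, at 95.8 CPM, was the lowest of the 8 libraries, and Ccl21a, at 10.7 CPM, the highest. Knockout 1 also stood apart in Aqp2, the water channel gene of the collecting duct, at 478 CPM against 149 to 202 CPM. It was the highest in Pax2, a gene of the nephron and collecting duct lineages, at 92.0 CPM against 55.9 to 71.6 CPM. Aqp2 and Pax2 were picked from the kidney identity list after their values were seen. The median of that whole list was 0.10 in knockout 1, within the -0.24 to 0.11 of the other 7 libraries. The part of the Aqp2 and Pax2 differences in the endothelial values of knockout 1 was not tested. Without knockout 1 the median of the 35 members was -0.08, with 27 estimates negative, and 2 members lay below wildtype and 2 above at an unadjusted edgeR p under 0.05. The share of all genes at that p was not taken for this fit. Red blood cell genes did not follow, with medians of 0.01, -0.12, 0.19 and 0.17 in knockout and -0.05, -0.19, 0.16 and -0.15 in wildtype. After removal of the group means, 348 of the 496 pairs of endothelial genes (70.2%) had a positive correlation over the 8 libraries, with a median of 0.23. All pairs share the same libraries and scaling factors. The share of positive pairs among all tested genes was not computed, so the 70.2% has no baseline.

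**Figure D3:**
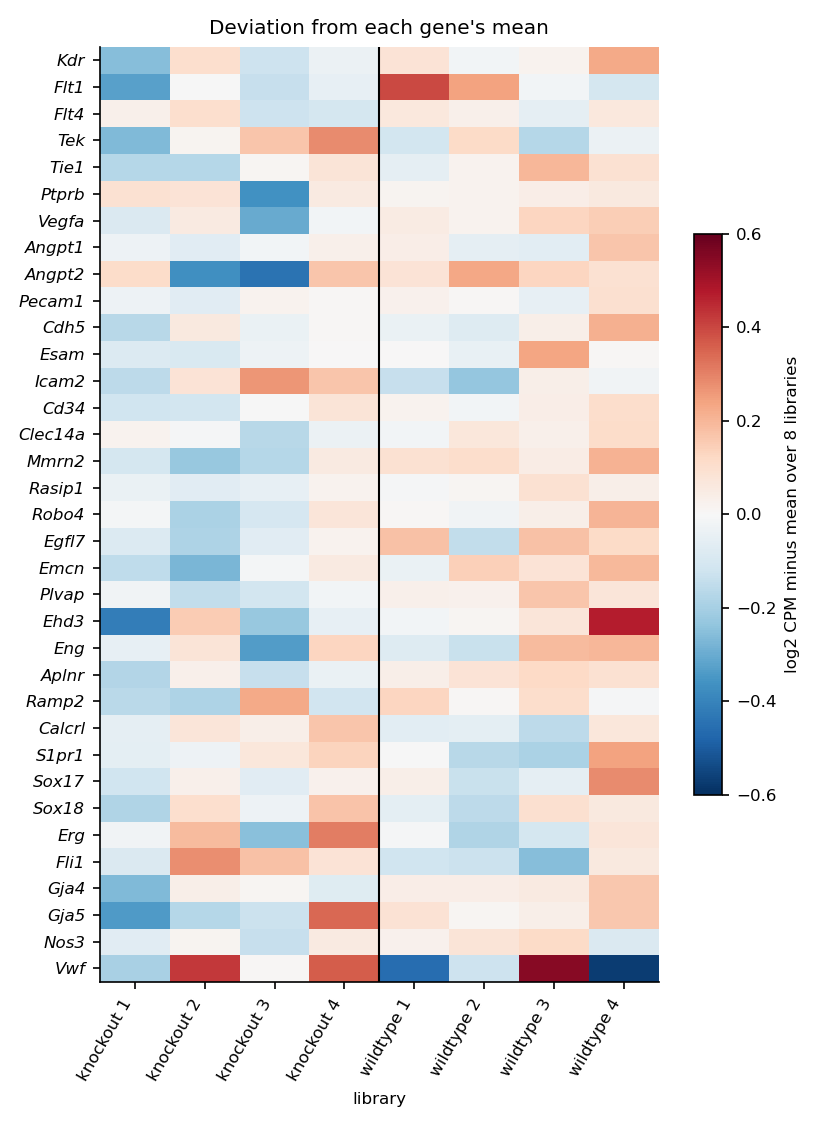
Deviation of log2 CPM from each gene's mean over the 8 libraries, knockout on the left and wildtype on the right, red above and blue below. Knockout 1 is mostly blue, with 29 of 32 endothelial genes below their mean, and wildtype 4 mostly red, with 6 of 32 below.

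Between genes, levels per transcript length spanned a wide range. The knockout means here include knockout 2, whose TPM were lower across the table. Flt4 was the lowest at 2.23 ± 0.221 TPM in knockout and 2.55 ± 0.171 TPM in wildtype (SD, n = 4 each). Next above came Vwf, Clec14a, Gja5, Ptprb and Angpt1, at 3.61 to 4.19 TPM in wildtype, and the SDs of these neighbours overlap, so their order is not fixed. Aplnr reached 90.4 ± 10.4 TPM in knockout and 112 ± 5.39 TPM in wildtype, followed by Vegfa at 71.2 ± 9.66 TPM in knockout and 88.5 ± 6.96 TPM in wildtype. Plvap, Ramp2 and Emcn lay next, at 62.9, 61.1 and 56.7 TPM in knockout and 76.2, 72.1 and 70.2 TPM in wildtype. Egfl7 had the highest deposited level, 271 ± 51.1 TPM in knockout and 332 ± 42.4 TPM in wildtype. Its TPM was 1.82 times its CPM in wildtype, the highest such ratio of the members, against 0.286 for Plvap. GENCODE lists 19 Egfl7 transcripts of 307 to 1865 bases, so its place at the top depends on the transcript lengths assigned to it.

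**Figure D4:**
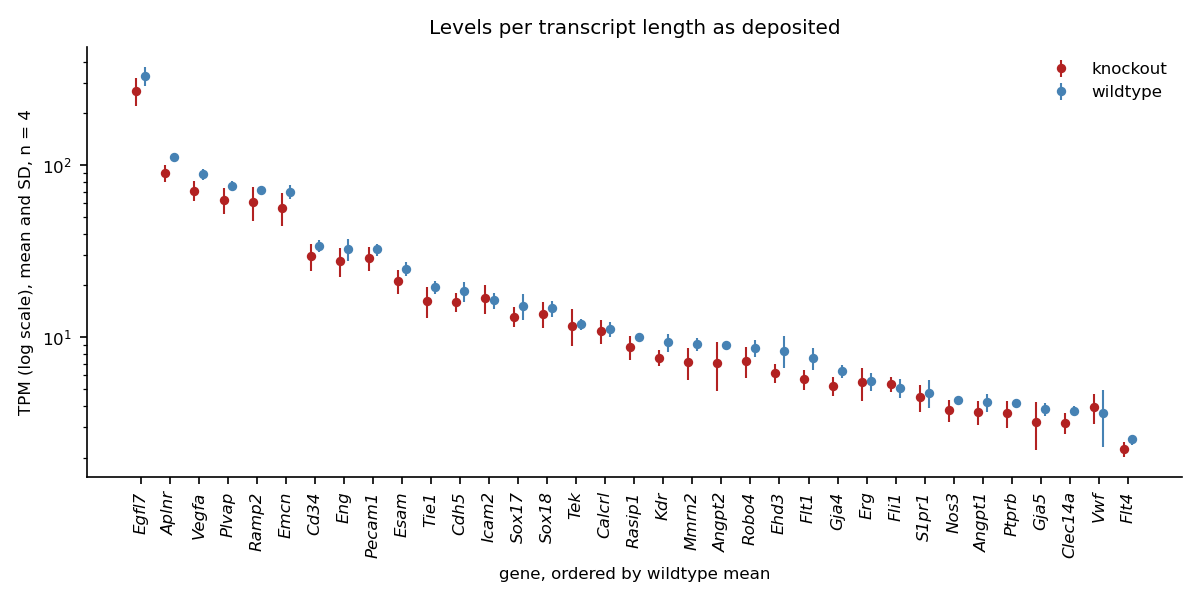
Deposited TPM of each member (mean and SD, n = 4 libraries) on a log axis, knockout left of wildtype, ordered by wildtype mean. Levels in wildtype run from 2.55 TPM for Flt4 to 332 TPM for Egfl7; knockout 2 has lower TPM across the table than the other libraries.

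The other genes of these pathways gave 0 calls with edgeR and 0 with DESeq2. At an unadjusted edgeR p under 0.05, 1 of the 9 other VEGF genes lay below wildtype and 1 above. Of the 10 Notch or ephrin genes 1 lay below, of the 14 further regulators tested 1 lay below, and 0 of the 10 BMP and TGF-beta genes lay on either side. Over all genes tested, 3.08% lay below and 3.11% above at that p. On the list of other VEGF genes, Vegfd, a ligand of VEGFR3, averaged 27.4 ± 3.80 CPM in knockout kidneys and 22.3 ± 0.744 CPM in wildtype. Nrp1, a VEGF coreceptor, averaged 232 ± 18.0 CPM in knockout kidneys and 262 ± 13.8 CPM in wildtype. Both had separated groups. The list's 9 genes had a median of -0.05. Of the related genes named below, Jag1, Plat, Pdgfrb, Csf1r, Nphs1, Podxl and Slc12a3 had separated groups with knockout lower, and Vcam1, Apln and Umod with knockout higher. Over all genes tested, 2.06% were separated with knockout lower and 1.97% with knockout higher. Of the 10 Notch and ephrin genes the ligand gene Jag1 had the smallest p, at 116 ± 12.1 CPM in knockout kidneys and 134 ± 2.75 CPM in wildtype, and Notch4 averaged 53.6 ± 2.19 CPM in knockout kidneys and 65.4 ± 13.5 CPM in wildtype (list median -0.05). The 10 BMP and TGF-beta genes had a median of -0.01, with Tmem100 at 8.32 ± 1.95 CPM in knockout kidneys and 6.27 ± 0.654 CPM in wildtype and Id3 at 119 ± 26.1 CPM in knockout kidneys and 142 ± 20.6 CPM in wildtype. Of 15 further endothelial regulators 14 were tested, with a median of -0.03. Elk3, an ETS factor gene, averaged 104 ± 4.23 CPM in knockout kidneys and 116 ± 7.25 CPM in wildtype, and Klf2, a flow-induced factor gene, 38.2 ± 2.37 CPM in knockout kidneys and 43.3 ± 3.24 CPM in wildtype. Etv2, an early embryonic regulator, was at 0 in all libraries.

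Among vasoactive and coagulation genes, Plat stood out in 1 tool. Plat encodes tissue plasminogen activator and averaged 79.0 ± 10.3 CPM in knockout kidneys and 104 ± 2.73 CPM in wildtype (log2 fold change -0.39 ± 0.09). It missed the threshold with edgeR (adjusted p = 0.318) and passed with DESeq2 (adjusted p = 0.0327). Vcam1, an adhesion molecule gene, averaged 41.5 ± 3.32 CPM in knockout kidneys and 32.8 ± 3.52 CPM in wildtype kidneys (log2 fold change 0.34 ± 0.10; edgeR adjusted p = 0.475). The 11 tested genes of that list had a median of 0.06. The 12 other ligands and receptors had a median of -0.06, with Apln, the ligand of the apelin receptor, at 36.0 ± 1.41 CPM in knockout kidneys and 32.2 ± 1.64 CPM in wildtype, and Cxcl12 at 215 ± 13.6 CPM in knockout kidneys and 193 ± 12.2 CPM in wildtype. Apln lay above wildtype in all 4 knockout libraries, against 1.97% of all genes tested. Its receptor gene Aplnr lay below in all 4, against 2.06%. Both missed the threshold, and the pair was read after its values were seen. Apela, another ligand gene of that receptor on the list, had overlapping groups (log2 fold change -0.08).

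Neighbouring cell types were read from their own lists. Lymphatic genes had a median of -0.01, with Ccl21a, which has near-identical copies, at 6.62 ± 3.07 CPM in knockout kidneys and 4.22 ± 1.35 CPM in wildtype, and Pdpn, also a podocyte gene, at 25.0 ± 3.29 CPM in knockout kidneys and 28.0 ± 0.734 CPM in wildtype. Pericyte and smooth muscle genes had a median of -0.08, with 8 of 10 negative. Pdgfrb, the receptor that recruits pericytes to vessels, averaged 162 ± 10.7 CPM in knockout kidneys and 188 ± 2.86 CPM in wildtype, with separated groups (log2 fold change -0.21 ± 0.06, edgeR adjusted p = 0.547), and Kcnj8 averaged 13.7 ± 3.14 CPM in knockout kidneys and 16.4 ± 0.438 CPM in wildtype. The 10 tested oxygen-sensing targets had a median of -0.00, with Ndrg1 at 700 ± 59.3 CPM in knockout kidneys and 619 ± 85.6 CPM in wildtype and Ankrd37 at 4.49 ± 0.882 CPM in knockout kidneys and 5.63 ± 1.25 CPM in wildtype.

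Of these lists the podocyte list had the median farthest from 0. Nphs1, the nephrin gene, averaged 56.4 ± 9.21 CPM in knockout kidneys and 81.6 ± 6.36 CPM in wildtype, and Podxl, which podocytes share with endothelium, averaged 406 ± 48.0 CPM in knockout kidneys and 552 ± 66.6 CPM in wildtype. Neither passed with edgeR (adjusted p = 0.261 for Nphs1 and 0.302 for Podxl), and both passed with DESeq2 (adjusted p = 0.00862 for Nphs1 and 0.0209 for Podxl). Leukocyte genes had a median of -0.01, with the macrophage receptor gene Csf1r at 52.5 ± 1.67 CPM in knockout kidneys and 59.6 ± 3.20 CPM in wildtype and Ptprc at 11.0 ± 2.53 CPM in knockout kidneys and 9.91 ± 1.78 CPM in wildtype. Red blood cell genes had a median of 0.11, with Slc4a1, also an intercalated cell gene, at 51.3 ± 8.29 CPM in knockout kidneys and 40.8 ± 3.20 CPM in wildtype and Hba-a1 at 376 ± 43.5 CPM in knockout kidneys and 326 ± 44.1 CPM in wildtype. Of the kidney identity genes, Slc12a3 fell to 247 ± 30.9 CPM in knockout, against 464 ± 23.9 CPM in wildtype, the 1 call on any of these lists with edgeR, and Umod averaged 1206 ± 96.3 CPM in knockout kidneys and 831 ± 69.1 CPM in wildtype.

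**Figure D5:**
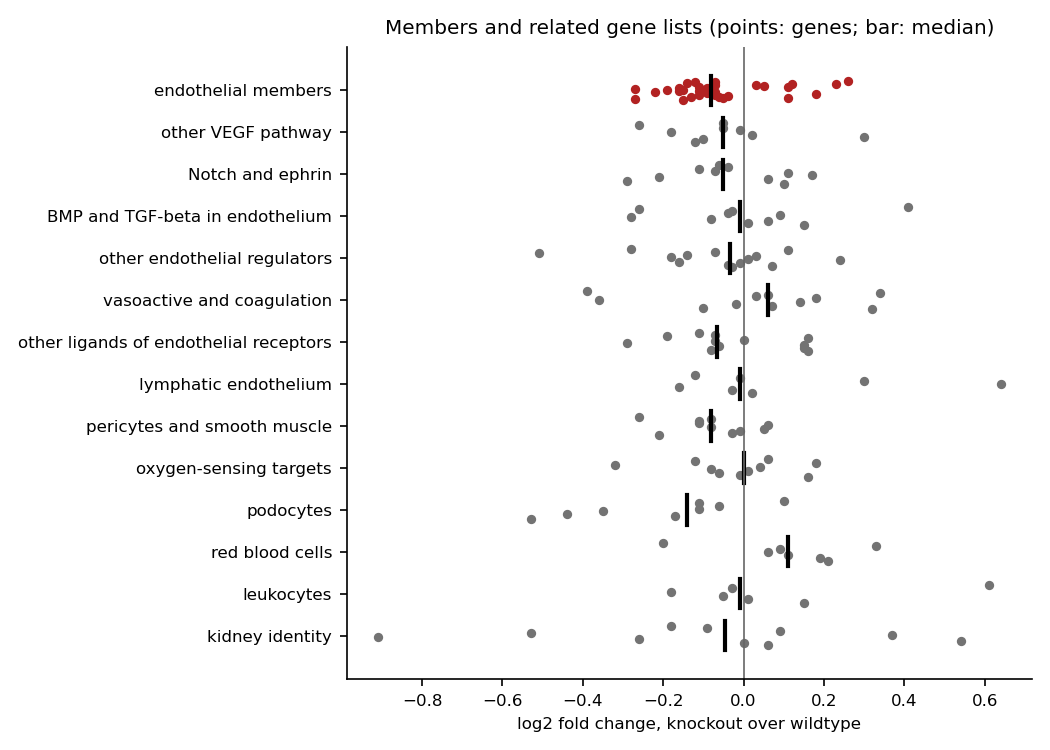
Log2 fold changes of knockout over wildtype for the 32 endothelial genes (red) and the tested genes of 13 related lists (grey), with the median of each as a black bar. The endothelial median is -0.08, the podocyte median -0.14 and the red blood cell median 0.11.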

How the data were processed

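Whole-kidney RNA of 4 knockout and 4 wildtype libraries was sequenced. Per the submitters' processing notes, Salmon (no version given) and DESeq2 1.14.1 were used with mm10; the annotation was not given in the sources used here. As deposited by the authors, one table holds estimated counts per gene, rounded to whole numbers and without gene names, and the other holds TPM per gene with identifiers and symbols. The 47729 count rows were matched by row order with the 47729 distinct TPM identifiers. In a check over 13251 genes with at least 50 counts in each library, count and TPM differed by a steady factor (median SD of the log2 ratio 0.000745, against 0.281 with rows shifted by 1). In R 4.3.3, edgeR 4.0.16 (filterByExpr, 18548 genes, TMM, robust quasi-likelihood test, two-sided, genotype alone) compared knockout with wildtype, with Benjamini-Hochberg adjustment over all genes. SE is the absolute log2 fold change over the square root of F, and CPM carries the TMM factors. The fit was tested on simulated data. DESeq2 1.42.0, limma-voom and limma 3.58.1 on log2(TPM + 1) and log2(TPM + 0.1), other scalings and filters, and left-out libraries were alternatives. Coordinates are from GENCODE M21 (GRCm38). All pairs of libraries within a group differed beyond sampling noise (lowest chi-square over its degrees of freedom 10.3). The members and gene lists were chosen with earlier results of these data known. Members given library by library are those with the smallest p in each role, those with separated groups, the 3 ligands and, chosen after its values were seen, Kdr. From each related list the 2 genes with the smallest p are named. Apln with its receptor, Apela, Aqp2, Pax2, Itga9 and Etv2 were also read after their values were seen.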

Additional observations from a re-analysis of the deposited data

Results flagged for a closer look

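Of 70 sets of 4 libraries (35 genes in each group), 5 had 1 library standing well apart from its group; about 3.5 such sets are expected by chance (1 in 20). Ptprb was at 72.9 CPM in knockout 3, and the other 3 knockout libraries lay at 97.2 to 99.7 CPM. Ramp2 was at 66.9 CPM in knockout 3, against 50.2 to 52.7 CPM in the other knockout libraries. In wildtype 3, Esam was at 81.5 CPM, and the other wildtype libraries lay at 67.0 to 69.3 CPM. Wildtype 4 was apart for both Ehd3, at 70.2 CPM against 50.2 to 53.3 CPM, and Gja4, at 19.1 CPM against 17.6 to 17.7 CPM in the other wildtype libraries.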

How the results depend on the processing

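The count of 0 members past the threshold was the same in all 20 alternatives, where the lowest adjusted p of a member was 0.502. The members' median of -0.09 was -0.13 to -0.07 when each library was left out, and 25 to 28 estimates were negative. On log2(TPM + 1) it was -0.21 and on log2(TPM + 0.1) -0.23, where the median of all genes was -0.11 and -0.14. In all, 26 members kept their sign in every alternative, and 0 changed it under another scaling. Tek, Ptprb, Angpt1, Eng, Calcrl, S1pr1, Sox17, Sox18 and Erg changed it in at least 1. Members below wildtype at an unadjusted p under 0.05 numbered 2 with upper-quartile scaling and 2 with no filter, and the shares of all genes were not taken for these fits.

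Over all genes 15 passed, against 27 with no filter, 154 with DESeq2, 5 in each TPM fit and 3 without both Xist-rich libraries (knockout 2 and wildtype 3). Leaving out each library gave 10 to 52, with 29 without knockout 3 and 52 without wildtype 4. Of the kidney identity list, where edgeR called 1, calls numbered 2 with upper-quartile scaling, 2 with no filter, 3 with DESeq2, 0 in each TPM fit, 0 without both Xist-rich libraries and 1 to 2 with a library left out. DESeq2 also called 2 podocyte genes and 1 vasoactive gene. Nphs1 is on both the podocyte and the kidney identity list and counts in both. The replicate numbers did not pair the libraries (correlations of same-numbered deviations 0.0176, -0.081, 0.0363 and 0.0138), and with a replicate block edgeR called 10 genes and 0 members. With 4 libraries per group, 33 of 35 intervals reach no further than 1.5-fold, and smaller differences cannot be read gene by gene.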
